A study of Danio rerio with 6 samples.

Results

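The genes described here carry the signal of the T cell receptor from the cell surface into the cell, together with the co-receptors that help the receptor bind antigen. They were the rows of the deposited count table with an Ensembl gene ID whose symbol was cd247, cd247l, cd4-1, cd8a, lck, zap70, skap1, sla2 or cd28. Of these 9 symbols 8 had a row, out of 25116 rows with an Ensembl gene ID, and cd247 was not analysed here. Of the 8, 6 passed the filter on low counts and were tested, and the co-receptor genes cd4-1 and cd8a were listed at 0 in every library.

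As background, the T cell receptor has no enzyme of its own. When it binds antigen on another cell, the kinase Lck, held near it by the co-receptor CD4 or CD8, phosphorylates the receptor's signalling chains, of which CD247 (the zeta chain) is one. The kinase ZAP-70 then docks on those chains and passes the signal to adaptor proteins, which lead on to calcium signalling, while CD28 supplies a second, co-stimulatory signal. In mammals, natural killer and other innate lymphoid cells use several of the same kinases and adaptors, so these genes mark lymphoid cells more widely than T cells alone.

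The libraries came from larval zebrafish of the line Tg(coro1a:DenNTR). Its transgene uses the promoter of coro1a, a gene active across leukocytes, to make a fusion of Dendra2, a protein that turns from green to red in violet light, and NTR, presumably nitroreductase. The labels give the genotype as WT for all samples, and both groups carried the transgene. Larvae had been treated with DMSO, the solvent control, or with MTZ, which with such transgenes is usually metronidazole, a prodrug that nitroreductase turns into a toxin for the cells that make it. At 3.5 dpt, when the larvae were 9 dpf, Dendra2 in the kidney was switched to red with a 405-nm laser for 30 s, and about 80 larvae were pooled. Each library was made by Smart-seq2, a full-length cDNA method without molecular identifiers, from 50 sorted red cells. There were 3 libraries per group, and the labels do not say whether they came from separate pools, so the p-values reflect library-to-library spread that may be purely technical. Since this promoter does not single out 1 blood lineage, each library was a mixture of leukocyte types. In such a mixture, fewer cells of a type and less RNA per cell cannot be told apart.

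Library totals lay between 14058382 and 20674280 counts. Levels are given in CPM, the counts of a gene as a share of the TMM-adjusted library size. The floor of 3 counts was worth 0.149 to 0.233 CPM, depending on the library, a limit that covers counting error only. Of the list of 15 kidney tubule and glomerulus markers, 11 were at 0 in all libraries, and the sum of the list did not exceed 42.8 CPM in any library. Neutrophil marker sums were 1669 to 6056 CPM under DMSO, and they were 18519, 1284 and 2400 CPM in MTZ 1, 2 and 3. In DMSO 2, MTZ 2 and MTZ 3 a large part of the sum was srgn, at 996, 1038 and 1228 CPM. There lyz had only 4.44, 6.68 and 5.31 CPM, against 3183 to 9301 CPM in the other libraries. The gene mpx had 0.0585, 14.6 and 0.298 CPM there, against 71.2 to 477 CPM. Skeletal muscle markers summed to 10023 CPM in DMSO 1 and to at most 26.5 CPM elsewhere, and pancreas markers to 798 CPM in MTZ 3 and at most 32.4 CPM elsewhere. Thrombocyte markers summed to between 70.2 and 236 CPM under DMSO and between 373 and 445 CPM under MTZ, without overlap. This sum joined rows that went opposite ways: of 6 tested, 4 had a log2 fold change above 0 and 2, gp9 and fn1b, below. Of the 6, itga2b, f13a1b and nfe2 were higher in every MTZ library than in any DMSO library, and gp9 was lower in every one. The gene itga2b had 1.87, 0.0585 and 0.132 CPM under DMSO and 72.2, 69.2 and 48.0 CPM under MTZ. For gp9 the values were 17.3, 19.4 and 24.7 CPM under DMSO and 0, 5.94 and 5.61 CPM under MTZ. EdgeR called none of the 6, and 10.8% of all tested genes had groups without overlap. The part of thrombocyte markers in the results for cd28 and lyn was not tested.

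The co-receptor genes that separate helper from cytotoxic T cells were not detected. The gene cd4-1 (ENSDARG00000070668), for the co-receptor that binds MHC class II, and cd8a (ENSDARG00000044797), for the alpha chain of the co-receptor that binds MHC class I, had 0 counts in each of the 6 libraries, which allows up to the floor of 3 counts per library. Both rows belonged to the 9403 of 27314 rows that were at 0 throughout. The beta chain partner of Cd8a, cd8b (ENSDARG00000058682), was seen in DMSO 2 alone, with 37 counts or 2.16 CPM. The other CD4 gene in the table, cd4-2.2, was also at 0 in every library. Transcripts of the CD4 and CD8 co-receptors in the table were thus not detected in any library, with cd8b in DMSO 2 as the exception.

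The transcript of cd247l, a relative of the gene for the receptor's signalling chain CD247, was detected in all 6 libraries. The gene cd247l (ENSDARG00000077240), annotated as a CD247-like antigen, had 113, 31.5 and 8.62 CPM under DMSO and 22.1, 66.5 and 62.0 CPM under MTZ. The DMSO libraries held both the highest and the lowest value, so the groups overlapped fully. The means were 51.1 ± 54.9 CPM under DMSO and 50.2 ± 24.5 CPM under MTZ (SD, n = 3 each). The log2 fold change of MTZ against DMSO was -0.03 ± 1.05 (standard error), with a 95% interval from -2.42 to 2.37, so a change of either sign by several fold lay within the interval.

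The kinase that starts the cascade, lck, was lower in every MTZ library than in any DMSO library. The gene lck (ENSDARG00000102525) had 127, 99.2 and 238 CPM under DMSO and 0.0540, 71.0 and 86.001 CPM under MTZ. MTZ 1 stood apart with a single lck count, where the other 5 libraries had between 1147 and 3618 counts. The log2 fold change was -1.56 ± 1.46, with an interval from -4.91 to 1.78, and edgeR did not call it (adjusted p = 0.9997). Without MTZ 1 it was -0.97, and over all leave-one-out fits it ran from -2.12 to -0.97. Across all tested genes, such a separation with every MTZ library lower was found in 5.17% of genes, and with every MTZ library higher in 5.58%, together 10.8%.

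The near absence of lck from MTZ 1 was uncommon among genes of at least 50 CPM in every other library. That set has no upper limit on level, and it leaves out genes that fell below 50 CPM in any of those 5 libraries. It therefore gives no rate for genes of the same level as lck. Among the 1772 tested genes with at least 50 CPM in each of the 5 libraries other than MTZ 1, 5 had at most 3 counts in MTZ 1, or 0.282%. They were lck, rorc, gadd45bb, gga1 and a clone-named gene, named here after their values were seen. The gene rorc encodes a nuclear receptor that in mammals directs innate lymphoid cells and part of the helper T cells. For each of the other 5 libraries the same count lay between 0 and 4 genes and held none of the receptor signalling genes. Of the tested members only sla2 could enter those counts, since every other one was below 50 CPM in MTZ 1. The absence of the others was thus fixed in advance and gives no comparison with MTZ 1.

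The gene of the next kinase, zap70, went through the libraries in an order of its own. The gene zap70 (ENSDARG00000015752) had 12.3, 107 and 16.0 CPM under DMSO and 15.1, 1.42 and 114 CPM under MTZ. In each group 1 library, DMSO 2 and MTZ 3, was far above the other two. The means were 45.1 ± 53.6 CPM under DMSO and 43.6 ± 61.6 CPM under MTZ. MTZ against DMSO gave a log2 fold change of -0.05 ± 1.51, with an interval from -3.50 to 3.40. Leaving out DMSO 2 turned it to 1.63, and leaving out MTZ 3 to -2.44.

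Of the adaptors, sla2 was the steadiest of the 6 tested genes and skap1 was lower on average in MTZ. The gene sla2 (ENSDARG00000020788), for an adaptor that in mammals dampens receptor signalling, had 227, 273 and 315 CPM under DMSO and 110, 249 and 195 CPM under MTZ. MTZ 1 was the lowest library, MTZ 2 lay within the DMSO range, and the log2 fold change was -0.56 ± 0.37 with an interval from -1.39 to 0.28. Without MTZ 1 it was -0.28. Of all 6 intervals this was the narrowest.

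The gene skap1 (ENSDARG00000001498), for an adaptor that links the receptor to integrin adhesion, had 68.7, 37.1 and 125 CPM under DMSO and 9.82, 63.2 and 27.7 CPM under MTZ. MTZ 1 was again the lowest, and MTZ 2 lay between the DMSO libraries. Its log2 fold change was -1.20 ± 0.91, with an interval from -3.28 to 0.89. It was -2.03 without MTZ 2 and -0.66 without DMSO 3.

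The transcript of the co-stimulatory receptor gene cd28 was on the other side, higher in every MTZ library than in any DMSO library. Across all tested genes, 5.58% were separated in this direction. The gene cd28 (ENSDARG00000095070) had 16.3, 21.6 and 8.35 CPM under DMSO and 36.1, 82.0 and 61.5 CPM under MTZ. The lowest MTZ library, MTZ 1, was the one in which lck was nearly absent. The means were 15.4 ± 6.69 CPM under DMSO and 59.9 ± 23.0 CPM under MTZ, a log2 fold change of 1.95 ± 0.99 with an interval from -0.32 to 4.23. EdgeR did not call it (unadjusted p = 0.0834, adjusted p = 0.9997), and DESeq2 gave an unadjusted p of 0.0170 and an adjusted p of 0.522. Its leave-one-out values ran from 1.66 to 2.29.

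Counts of cd28 carried decimals in 3 of 6 libraries, which reads shared between similar genes can give, and the table holds a close relative, cd28l (ENSDARG00000069978), annotated as a CD28-like molecule. This gene was added after its values were seen. It had 2.88, 26.1 and 5.26 CPM under DMSO and 30.8, 61.2 and 30.6 CPM under MTZ. As for cd28, every MTZ library was above every DMSO library, and the log2 fold change was 1.84 ± 1.40 (edgeR adjusted p = 0.9997, not called). Summed over both genes, which removes any split of reads between them, the libraries had 19.2, 47.7 and 13.6 CPM under DMSO and 66.8, 143 and 92.1 CPM under MTZ. The log2 fold change of the sum was 1.91 ± 0.76 (edgeR unadjusted p = 0.0348, adjusted p = 0.9997). Its direction and separation were fixed in advance, since each gene was higher in every MTZ library than in any DMSO library. The sum therefore adds no evidence for cd28. An unadjusted p under 0.05 was reached by 3.18% of all tested genes.

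**Figure D1:**
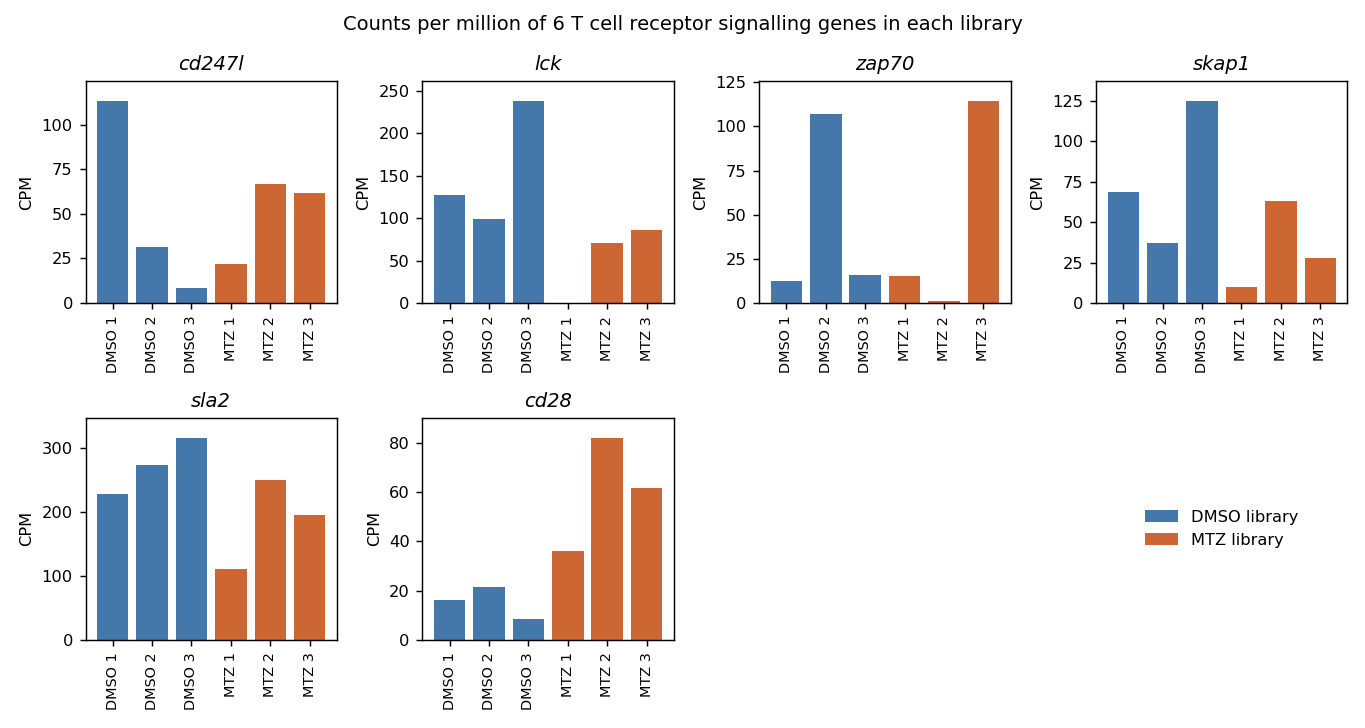
Level of each of the 6 tested genes (vertical axis, CPM, each panel with its own scale from 0) in the 3 DMSO libraries (blue) and the 3 MTZ libraries (orange), 1 bar per library. The gene lck is nearly absent from MTZ 1, zap70 is high in DMSO 2 and MTZ 3, and cd28 is higher in all MTZ libraries, from 36.1 to 82.0 CPM, than in the DMSO libraries, from 8.35 to 21.6 CPM.

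Over the 6 tested members, 5 had a log2 fold change below 0 and 1 above, with a median of -0.30. Over all 10283 genes tested, 49.1% were below 0 and the median was 0.02. No member was called by edgeR, which called 0.00% of all genes, and 0 members had an unadjusted p under 0.05. DESeq2 called 1.33% of genes and edgeR without a filter on low counts 0.290%, and neither called a member. The count of 5 lower members rests partly on cd247l and zap70, whose log2 fold changes were within 0.05 of 0. Without MTZ 1 the split was 3 lower and 3 higher, with a median of 0.03. In 4 members the direction was the same under all 15 alternatives, lower for lck, skap1 and sla2 and higher for cd28. For lck and cd28, whose groups did not overlap, leaving out 1 library could hardly change the direction, so those fits add little.

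**Figure D2:**
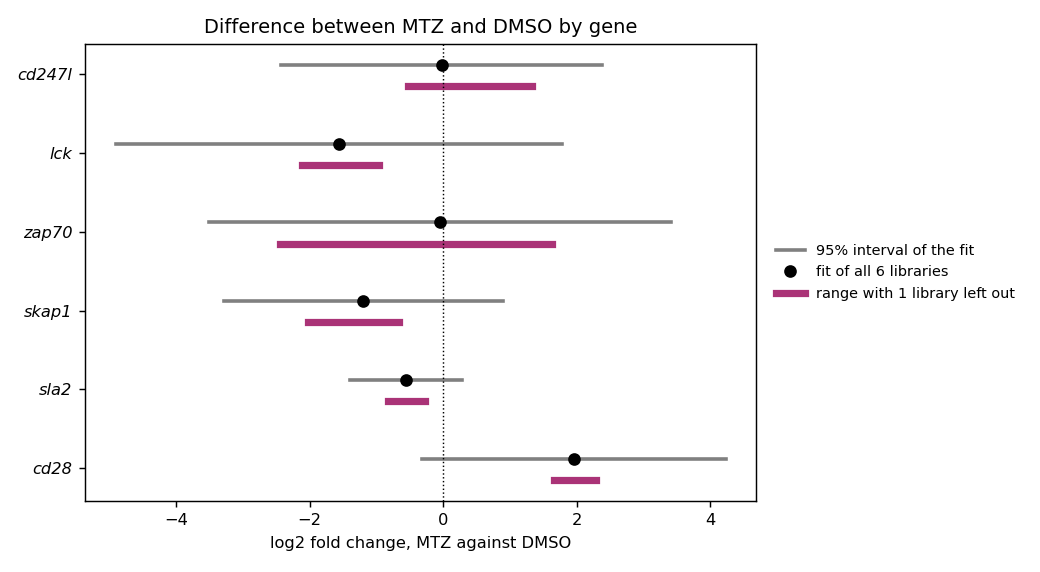
Log2 fold change of MTZ against DMSO (horizontal axis) for the 6 tested genes, with the fit of all 6 libraries (black point), its 95% interval (grey line) and the range of the 6 fits that each leave out 1 library (purple bar). All 6 intervals include 0, and the purple bars stay on one side of 0 for lck, skap1, sla2 and cd28.

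The 6 genes did not move through the libraries as a block. MTZ 1 was the lowest library for lck, skap1 and sla2, DMSO 3 for cd247l and cd28, and MTZ 2 for zap70. DMSO 3 was also the highest library for lck, skap1 and sla2. Likeness between genes was measured as the mean absolute difference, over the 6 libraries, of log2(CPM + 1) centred on each gene's mean. Among the 15 pairs it ran from 0.66 for skap1 and sla2 to 2.74 for lck and zap70, with a median of 1.63. By this measure the kinases lck and zap70 were the pair least alike. The measure is not scaled by spread, so it is larger for genes that vary more. These kinases also had the largest within-group SDs of log2(CPM + 1), 2.59 and 2.29, and sla2 had the smallest, 0.46. The ranking of pairs therefore partly reflects spread. The adaptors skap1 and sla2 were the closest pair, and cd247l and cd28 the next, at 0.82.

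**Figure D3:**
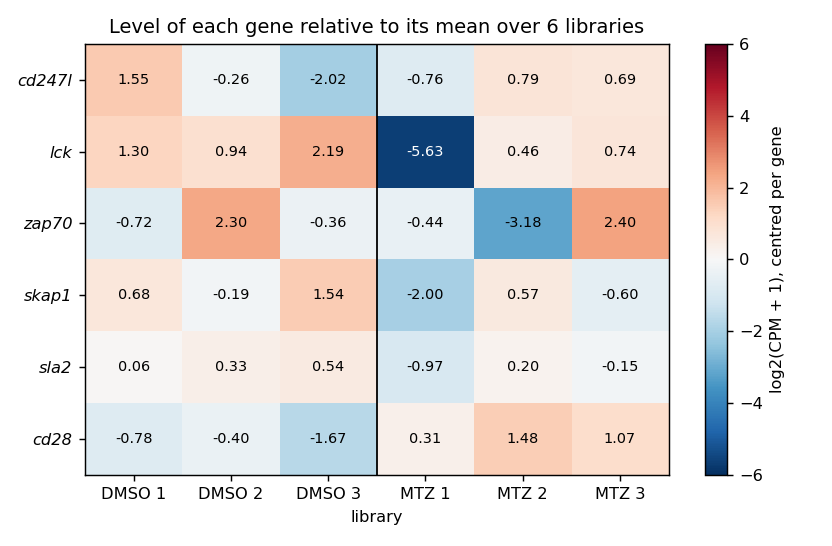
Level of each tested gene in each library (columns) as log2(CPM + 1) minus the gene's mean over the 6 libraries, red above and blue below the mean, with the value printed in each cell. The lowest cell is lck in MTZ 1 at -5.63, followed by zap70 in MTZ 2 at -3.18.

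Spread within the groups differed between the genes. The pooled within-group SD of log2(CPM + 1) was 0.46 for sla2 and 0.62 for cd28, and it was 2.59 for lck and 2.29 for zap70. Among the 2477 tested genes with a mean CPM within 2-fold of that of lck, the median SD was 0.74, and 95.1% had a smaller SD than lck. For zap70 the median over 3694 genes of like level was 1.41, and 76.1% had a smaller SD. The median for sla2 was 0.51 over 1330 such genes, and 42.4% had a smaller SD, so its low spread was usual for its level. For cd28 the median over 3914 such genes was 1.66, and 12.5% had a smaller SD, so cd28 was steadier within the groups than most genes of its level.

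The genes whose pattern was most like that of lck were fbxl4, wrap53, nudt1 and sirt6, at distances of 0.47, 0.51, 0.52 and 0.53, where the median over 8217 candidate genes was 2.12. All of them had at most 0.22 CPM in MTZ 1, which follows from picking genes near a profile that was lowest there. Nearest to zap70 were dnase1l1, slc43a3b, sap130a and spryd7a, at 0.50 to 0.59, each with its highest value in MTZ 3. That too follows from the choice, as zap70 was highest in MTZ 3. Nearest to cd28 were psmc3ip, osbpl9, pdlim1 and trdmt1, at 0.27 to 0.30. The likeness rests on 6 libraries, and none of these 12 genes was in the lists of T cell receptor pathway or lymphoid genes. Those lists held few of the tested rows, 50 of 10283 for the pathway, so this absence says little.

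The other genes of the pathway were taken from lists of 92 symbols, of which 26 had no row. The remaining 66 symbols matched 67 rows, and 50 rows were tested. MTZ was above DMSO for 31 and below for 19, the median log2 fold change being 0.12, and none passed (0 by edgeR and 0 by DESeq2 after adjustment, and 0 at an edgeR unadjusted p under 0.05). DESeq2 gave an unadjusted p under 0.05 for 3 of the 50, lyn, malt1 and themis, and for 558 of all 10283 genes. Without MTZ 2 the split was 24 higher and 29 lower, with a median of -0.11.

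Among kinases and phosphatases, 7 of 11 were higher and 4 lower. The Src family kinase gene lyn had 2.33, 3.74 and 2.63 CPM under DMSO and 28.01, 21.3 and 35.5 CPM under MTZ, with no overlap. Of the 50 tested pathway genes it was the only 1 without overlap, where 10.8% of all tested genes had none. The log2 fold change of lyn was 3.28 ± 1.71 (edgeR adjusted p = 0.9997, DESeq2 adjusted p = 0.0782). In mammals Lyn is the Src kinase of B cells and myeloid cells rather than of T cells. The T cell counterpart fyna was at 0 in all libraries and fynb had means of 0.0518 CPM under DMSO and 0.0537 CPM under MTZ. The leukocyte phosphatase gene ptprc (CD45), which frees Lck from its inhibitory phosphate, had 87.7, 118 and 15.7 CPM under DMSO and 175, 243 and 104 CPM under MTZ, where MTZ 3 lay below DMSO 2. The gene syk, for the relative of ZAP-70 that B cells and myeloid cells use, had 417, 324 and 143 CPM against 393, 633 and 298 CPM.

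Among adaptors, 9 of 16 were higher and 7 lower. The gene themis, for an adaptor that in mammals is needed for T cell maturation in the thymus, had the smallest p of the list, with 94.9, 159 and 45.2 CPM under DMSO and 49.9, 13.4 and 20.1 CPM under MTZ. MTZ 1 lay just above DMSO 3, and the log2 fold change was -1.84 ± 0.81 (edgeR unadjusted p = 0.0522). The gene lcp2a, for the SLP-76 scaffold that ZAP-70 phosphorylates, had 106, 85.6 and 21.2 CPM against 135, 246 and 80.4 CPM. The gene lat, for the membrane scaffold that ZAP-70 phosphorylates with SLP-76, had means of 31.0 CPM under DMSO and 13.4 CPM under MTZ. The scaffold partner grap2a (GADS) was at a mean of 543 CPM under DMSO and 668 CPM under MTZ.

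Among the distal signalling genes, 12 of 20 were higher and 8 lower. The gene plcg1, for the phospholipase that opens the calcium branch of the cascade, had 83.8, 35.0 and 21.7 CPM under DMSO and 1.08, 5.38 and 23.2 CPM under MTZ (log2 fold change -2.24 ± 1.49). That value was -3.86 without MTZ 3 and -1.51 without DMSO 1. MTZ 3 was above DMSO 3, so the groups overlapped. The gene malt1, for the protease that links the receptor to NF-kB, was at no more than 2.43 CPM under DMSO and had 28.8, 64.0 and 0.0993 CPM under MTZ. The gene nfatc2b, for a calcium-driven transcription factor, had 22.5, 6.37 and 15.9 CPM against 22.3, 127 and 30.2 CPM. Its log2 fold change was 2.0 with all libraries and 0.82 without MTZ 2.

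The co-stimulation list had 3 tested genes, all with a log2 fold change above 0. The genes tnfrsf9a (4-1BB), cd40lg and cd83 were at most 0.108 CPM in MTZ 1 and higher in the other MTZ libraries. For cd40lg, the ligand with which helper T cells act on B cells and macrophages, the libraries had 77.6, 63.7 and 0.132 CPM under DMSO and 0.0540, 136 and 44.3 CPM under MTZ. In MTZ 1 the sum of the co-stimulation list was 0.162 CPM, and in the other libraries it lay between 14.2 and 260 CPM. The list's cd83 and cd40lg changed sign under some alternatives.

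**Figure D4:**
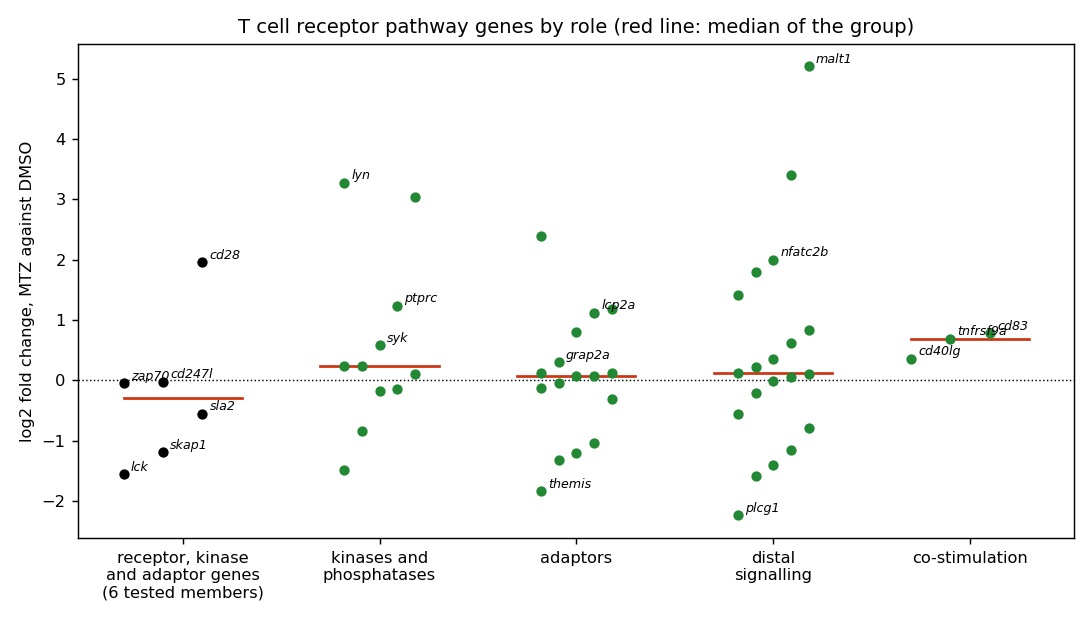
Log2 fold change of MTZ against DMSO (vertical axis) for the 6 tested members (black) and for the 50 other tested pathway genes in 4 groups by role (green), 1 point per gene, with the median of each group as a red line and names for the members and the 3 genes of smallest p per group. The medians lie at -0.30 for the members and at 0.23, 0.07, 0.11 and 0.69 for the other groups.

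The receptor itself was read from loci, since its alpha and beta chain constant genes had no row by symbol. All 17 rows whose description names a T cell receptor were taken, a choice made after the values were seen. Of these 13 had counts, and 7 were tested. The locus MSTRG.15424, described by its similarity to a salmon T cell receptor beta chain, had 148, 124 and 135 CPM under DMSO and 196, 236 and 173 CPM under MTZ. All MTZ libraries were above all DMSO libraries, as for 5.58% of all tested genes. The log2 fold change was 0.57 ± 0.32 (edgeR adjusted p = 0.9997, not called).

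The locus MSTRG.20176, described as the zebrafish T cell receptor delta constant region, went the other way. It had 110, 139 and 346 CPM under DMSO and 102, 53.5 and 26.9 CPM under MTZ. The groups did not overlap, though MTZ 1 lay only just below DMSO 1, and the log2 fold change was -1.70 ± 0.65 (edgeR unadjusted p = 0.0287, adjusted p = 0.9997). Over all tested genes, 5.17% were lower in every MTZ library, and 3.18% had an edgeR unadjusted p under 0.05. The alpha joining segment traj39 (ENSDARG00000075807) had 381, 290 and 151 CPM against 197, 300 and 215 CPM, with overlap. The segment traj28 (ENSDARG00000104132) had 87.9, 0 and 23.1 CPM under DMSO and 0, 220 and 87.3 CPM under MTZ, so it was at 0 in MTZ 1 and in DMSO 2. In MTZ 1, where lck had 1 count, the beta locus was at 196 CPM and the delta locus at 102 CPM. The sum over all T cell receptor loci was 783, 578 and 723 CPM under DMSO and 498, 851 and 522 CPM under MTZ, lowest in MTZ 1.

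**Figure D5:**
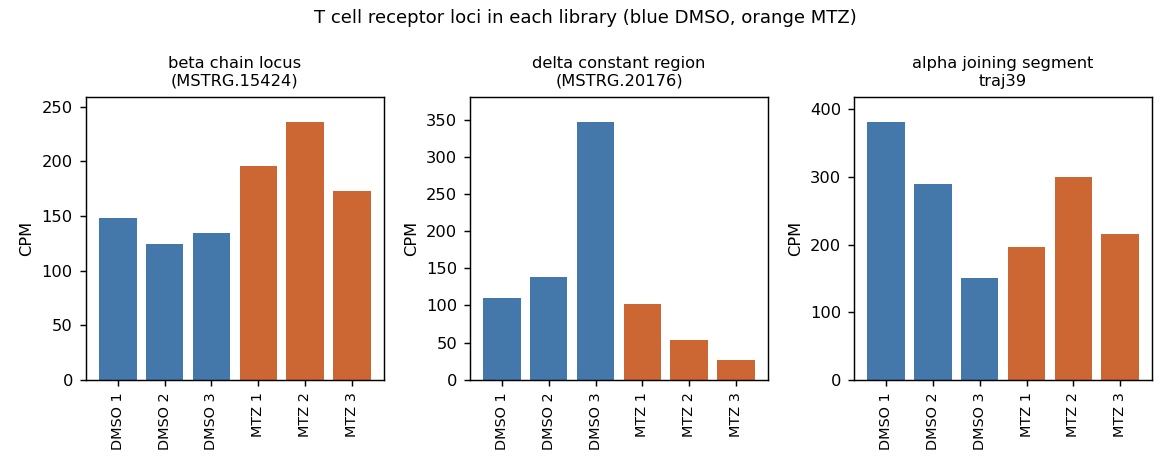
Level of 3 T cell receptor loci (vertical axis, CPM, each panel with its own scale from 0) in the DMSO libraries (blue) and the MTZ libraries (orange), 1 bar per library. The beta chain locus is higher in all MTZ libraries (173 to 236 CPM) than in the DMSO libraries (124 to 148 CPM), and the delta constant region is lower in all MTZ libraries (26.9 to 102 CPM against 110 to 346 CPM).

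Levels of other lymphoid genes are given beside these results, and their part in them was not tested. Summed over the 8 rows of the receptor signalling genes, DMSO 1, 2 and 3 reached 565, 569 and 711 CPM, compared with 193, 533 and 546 CPM for MTZ 1, 2 and 3. MTZ 1 was the lowest, and MTZ 3 lay just below DMSO 1. Nuclear genes of the T lineage, a list of 9 with lef1 at 0, summed to 648, 1194 and 1566 CPM under DMSO and 375, 792 and 406 CPM under MTZ. In that list gata3 had 2.43 CPM in MTZ 1 and between 75.5 and 381 CPM elsewhere, and rag1 was lower in MTZ on average with overlapping libraries. Markers of natural killer and innate lymphoid cells, 19 of 20 symbols found, with 3 rows at 0, summed to 1077, 910 and 402 CPM under DMSO and to 231, 1712 and 687 CPM under MTZ. The symbols nkl.1 and nkl.2 matched the same row, which was counted for both. MTZ 1 was the lowest library for both lists and had the highest neutrophil sum. In every library the largest row of the natural killer and innate lymphoid list was il7r, at 572, 272 and 153 CPM under DMSO and 91.4, 457 and 348 CPM under MTZ. The list also holds rorc, which in mammals acts in part of the helper T cells too. Its sum therefore does not separate innate lymphoid cells from T cells. The genes nkl.1, nkl.3 and nkl.4 had at least 22.6 CPM in DMSO 2 and MTZ 2. In DMSO 1 they had 10.4, 3.97 and 9.33 CPM, and in DMSO 3, MTZ 1 and MTZ 3 at most 3.03 CPM. B cell markers, 12 rows with 6 at 0, among them cd79a, cd79b and pax5, summed to 59.5 to 192 CPM under DMSO and 61.5 to 180 CPM under MTZ. These sums joined rows that went opposite ways. The gene cd74a had 123, 44.7 and 131 CPM under DMSO and 22.8, 17.6 and 10.4 CPM under MTZ. For ighm the values were 0.156, 1.29 and 60.8 CPM under DMSO and 57.3, 43.9 and 122 CPM under MTZ.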

How the data were processed

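Gene expression was measured by Smart-seq2 in 6 libraries, 3 per group, with groups taken from the sample titles. As deposited, the single table holds estimated counts of each gene without scaling to a common total. HISAT2 and GRCz11 are named in the submitters' processing notes. Versions, counting tool, annotation release and strandedness were not given in the sources used here. Values showed the unit: 8.31% to 9.90% of nonzero values per library carried decimals, and all were rounded to whole numbers. Without known strand, overlapping genes may share reads.

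MTZ was compared with DMSO by the quasi-likelihood test of edgeR 4.0.16 (R 4.3.3, two-sided, TMM factors, minimum count of 10, group alone), adjusted by Benjamini-Hochberg over the 10283 rows tested and called under 0.05. Standard errors are the size of the log2 fold change over the square root of F, and 95% intervals use the test's degrees of freedom. The alternatives were DESeq2 1.42.0, limma 3.58.1 (voom), other scalings and filters, the replicate number as a block, and leaving out each library.

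Named genes were the members, the 3 pathway genes of smallest p per list and the 4 nearest genes to lck, zap70 and cd28 without clone names. Other genes were named after their values were seen. A gene of the set is not reported here, and counts over the set leave it out. The members and lists were chosen with earlier results of these data known. Of 264 list entries 228 matched by symbol, 7 through a table of gene IDs, and 29 had no match. No coordinates or sequences are printed, as no GRCz11 annotation or sequence table was used here.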

Additional observations from a re-analysis of the deposited data

How the results depend on the processing

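The number of genes called was 0 by edgeR, 130 by DESeq2 and 52 by edgeR without a filter on low counts, and 0 under the 13 other alternatives, with a range of 0 to 0 when a library was left out. The cause of these differences was not tested. The members called and the other pathway genes called were 0 under all 15 alternatives. The log2 fold change of cd247l, -0.03, turned to 0.63 and 0.61 with limma voom without and with quality weights, 0.0026 with library totals only, 0.66 with the replicate block, 1.33 without DMSO 1 and 0.34 without MTZ 1 (leave-one-out range -0.52 to 1.33). That of zap70 turned to 1.63, 0.37 and 0.53 without DMSO 2, MTZ 1 and MTZ 2 (range -2.44 to 1.63) and that of traj39 to 0.11 without DMSO 1 (-0.50 to 0.11). That of cd83 turned to -2.33 and -2.14 with limma voom, -1.85 with the replicate block and -1.71 without MTZ 3 (-1.71 to 1.89). That of cd40lg turned to -0.30 and -0.40 with limma voom, -0.23 without DMSO 3 and -1.07 without MTZ 2 (-1.07 to 0.95). That of lck was -4.20 with limma voom and -1.56 with edgeR, and the cause was not tested. Of the 12 named pathway genes 10 kept their direction.

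Correlations between libraries showed no pairing by replicate number. With 3 libraries of 50 cells per group, such a check cannot exclude shared pools or batches. Correlations of deviations from the group means ran from -0.05 to 0.01 for libraries of the same number and from -0.03 to 0.05 for the others, and of the 6 libraries MTZ 2 alone correlated best with its own number. With the replicate block edgeR called 0 genes, and the log2 fold change was -2.57 for lck and 1.98 for cd28. Library totals were 14058382 to 16400587 counts under DMSO and 16928977 to 20674280 under MTZ, so every MTZ library was deeper than every DMSO library. Whether depth or the 50 cells per library limited the detection of genes at 0, such as cd4-1 and cd8a, was not tested. The gene cd8b had 37 counts in DMSO 2 and 0 in every other library.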

Other observations

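The delta constant region and the beta chain locus of the T cell receptor moved apart, a pattern noticed in the data and not tested. The ratio of the CPM of MSTRG.20176 to that of MSTRG.15424 was 0.743, 1.11 and 2.57 in DMSO 1, 2 and 3, and 0.522, 0.227 and 0.155 in MTZ 1, 2 and 3. Every MTZ ratio lay below every DMSO ratio, with the smallest gap between DMSO 1 and MTZ 1. This separation was fixed in advance, since the delta locus was lower and the beta locus higher in every MTZ library, so it adds no evidence. MSTRG.20016, described as T cell receptor gamma, had 13.9 CPM in DMSO 2, 48.5 CPM in DMSO 3 and 1 count in MTZ 1, and none elsewhere. MSTRG.20013, of the same description, reached 17.8, 2.57 and 16.8 CPM under DMSO, and 11.3 CPM in MTZ 2, with none in MTZ 1 and MTZ 3. Leave-one-out log2 fold changes lay between -2.29 and -1.03 for the delta constant region and between 0.45 and 0.67 for the beta chain locus. The loci were assembled by the authors and named by similarity, so reads of neighbouring segments may be split between them.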
